A study of Mus musculus with 6 samples.

Results

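The genes described here encode cytosolic and mitochondrial heat shock proteins and the factor that drives them. They were taken by name from the deposited table of counts: Hspa1a, Hspa1b, Hspa8, Hsph1, Hsp90aa1, Dnajb1, Hspb1, Hspd1, Hspe1 and Hsf1, 10 of its 23337 genes. All 10 passed the filter on low counts, so no member was left untested. The near-identical pair Hspa1a and Hspa1b was also summed. The libraries came from cardiomyocytes of wild-type mice that received adeno-associated virus (AAV) on postnatal day 1. Hearts were taken at an age of 4 weeks, digested by Langendorff perfusion, and cardiomyocytes were sorted by flow cytometry. The vectors were AAV-GFP as the control, AAV-XBP1S and AAV-ATF6N, with 2 libraries per group and 6 in all. XBP1S is the name of the spliced, active form of the transcription factor XBP1, and ATF6N that of the cleaved, active fragment of ATF6. The sources used here name neither the vectors' promoters nor the sorting gate, the animals' sex or whether a library pooled animals. Nothing in them says that replicates were separate animals either, so the p-values measure only the spread between these samples.

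Heat shock proteins bind unfolded stretches of other proteins and help them fold. HSP70 proteins work in an ATP-driven cycle with J-domain proteins such as DNAJB1, which bring substrates and start ATP hydrolysis, and with HSP110 proteins such as HSPH1, which exchange the nucleotide. HSP90 takes late folding clients, small heat shock proteins such as HSPB1 hold aggregating proteins without ATP, and HSPD1 with its lid HSPE1 forms the folding chamber of the mitochondrial matrix. HSF1 binds heat shock elements, inverted repeats of a short unit, and induces many of these genes in proteotoxic stress. XBP1 and ATF6 act in a separate pathway, the unfolded protein response of the endoplasmic reticulum, whose best-known targets are chaperones of that compartment. In heart muscle, small heat shock proteins and HSP70 are known to protect the contractile apparatus.

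The promoters of Hspa1a and Hspa1b are shown at most length, since these were the members called as changed. Both genes are single-exon genes on the minus strand of chromosome 17 in mm10, Hspa1a at chr17:34969359-34972156 and Hspa1b at chr17:34956429-34959238, with starts 12918 bases apart. The 250 bases before each start, from RefSeq on GRCm38.p6, are shown 5′ to 3′ on the minus strand, with the heat shock element pair GAANNTTC in capitals. The windows are chr17:34972157-34972406 for Hspa1a and chr17:34959239-34959488 for Hspa1b. They differ at 3 of 250 bases, an identity of 98.8%.
Hspa1a: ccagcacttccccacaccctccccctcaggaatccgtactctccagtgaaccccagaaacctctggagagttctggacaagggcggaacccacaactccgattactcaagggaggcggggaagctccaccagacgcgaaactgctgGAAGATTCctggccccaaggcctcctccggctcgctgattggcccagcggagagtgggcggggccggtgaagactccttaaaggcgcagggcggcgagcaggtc
Hspa1b: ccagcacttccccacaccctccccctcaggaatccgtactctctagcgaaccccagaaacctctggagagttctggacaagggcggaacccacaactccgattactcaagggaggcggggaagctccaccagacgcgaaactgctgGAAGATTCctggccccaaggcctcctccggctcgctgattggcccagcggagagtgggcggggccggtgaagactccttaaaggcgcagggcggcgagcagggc
The pair of heat shock units began 104 bases before both starts. Hspd1 and Hspe1, by contrast, are divergent neighbours on chromosome 1 whose starts lie 216 bases apart, and between them is an array of heat shock units that both genes share. It is shown on the strand of each gene, at chr1:55088053-55088082 of GRCm38.p6, with the array in capitals.
Hspd1: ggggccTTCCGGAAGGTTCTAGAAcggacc
Hspe1: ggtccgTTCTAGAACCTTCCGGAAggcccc
Shorter stretches around the elements of Hsph1 (chr5:149636352-149636379, minus strand) and Hspb1 (chr5:135887792-135887839, plus strand) complete the set.
Hsph1: ggtagaatctTTCTCGAAggctcgagaa
Hspb1: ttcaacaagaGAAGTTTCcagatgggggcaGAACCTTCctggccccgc
RefSeq promoters were matched for 7 of the 10 members, and Hspa8, Hsp90aa1 and Hsf1 were not matched. In the window at the start the count table uses, 6 of the 7 held a pair of units as GAANNTTC or TTCNNGAA, and that of Dnajb1 held neither. Hsph1, Dnajb1 and Hspd1 have 2 windows each, and the other window of Hspd1 held no pair. By any listed window 6 of the 7 members held either pair, beside 14.5% of 27025 mouse genes, and by the window listed first 5 of the 7, beside 12.9%. By the window listed first 6.78% of all genes held GAANNTTC and 7.10% TTCNNGAA, both of which read the same on the other strand. The array of 3 units, GAANNTTCNNGAA or its reverse complement TTCNNGAANNTTC, contains both pairs. It was in the windows of Hspd1 and Hspe1 at the table's starts, which share 1 array, and in 0.400% of all windows listed first. The endoplasmic reticulum stress element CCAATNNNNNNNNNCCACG, searched on both strands, was in 0 of the 7 and in 0.122% of all windows listed first. These are matches of letters in a window and not measured binding sites. Hsph1, Hspb1, Hspd1 and Hspe1, which also held a pair, were not called in the reported fit. The part of these elements in the group differences was not tested.

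Before the member values, the libraries themselves need a description. Total counts ran from 67702482 to 112049342 per library, which is deep enough that counting error is small for every member. The first AAV-GFP library stood apart: it lay at -63.8 on the first principal component of log2 CPM (CPM, the count scaled to a common library total with TMM factors), which held 53.4% of the variance, while the other 5 lay between -24.3 and 34.8. Genes of up to 1000 bases were higher in the first than in the second AAV-GFP library by a median of 0.79 on the log2 scale, and genes over 4000 bases lower, with a median difference of -0.32. The same medians were 0.49 and -0.29 for the AAV-XBP1S libraries and -0.05 and 0.05 for those of AAV-ATF6N. Xbp1 was at 98.0 and 115 CPM in AAV-GFP, 160 and 166 in AAV-XBP1S, and 145 and 152 with AAV-ATF6N. Atf6 was at 44.9 and 70.6 CPM in AAV-GFP, 77.0 and 111 in AAV-XBP1S, and 162 and 158 with AAV-ATF6N. Cardiomyocyte markers summed to 144230 to 154716 CPM in AAV-GFP, 117943 to 119291 in AAV-XBP1S and 161950 to 163995 in AAV-ATF6N, lowest in AAV-XBP1S without overlap. The high sum of AAV-ATF6N leaned on 1 gene, Myh6, at 66565 and 65071 CPM there and 22991 and 41121 in AAV-GFP. None of the 15 listed was at 0, and the log2 fold change against AAV-GFP was below 0 for 12 of them in AAV-XBP1S and for 9 in AAV-ATF6N.

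In cardiomyocytes given AAV-XBP1S, the stress-inducible HSP70 genes rose about 4-fold, and no other of the 10 genes passed the test. Hspa1a and Hspa1b were called, 2 of 10 members, both higher, where 0.315% of the 14587 genes tested were called and 0.178% called higher in this comparison by edgeR's quasi-likelihood test at an adjusted p under 0.05. The genes are near-identical and the treatment of reads that map to both is not known, so these are not 2 independent calls. The members were also chosen with earlier results of these data known, so the shares are a background and not a test. Under AAV-ATF6N the pair lay between the other groups, with 0 of 10 members called against AAV-GFP (0.514% of genes tested) and 0 of 10 against AAV-XBP1S (0.226% of genes tested). At an unadjusted p under 0.05, 3, 2 and 2 members passed in those comparisons, beside 11.6%, 13.5% and 13.2% of all genes. DESeq2 called 2, 1 and 2 members, beside 3.17%, 3.76% and 5.39% of the genes it tested. The median log2 fold change of the 10 members was 0.04 for AAV-XBP1S and 0.13 for AAV-ATF6N against AAV-GFP, beside -0.01 and -0.02 for all genes tested. Both comparisons share the AAV-GFP libraries.

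**Figure D1:**
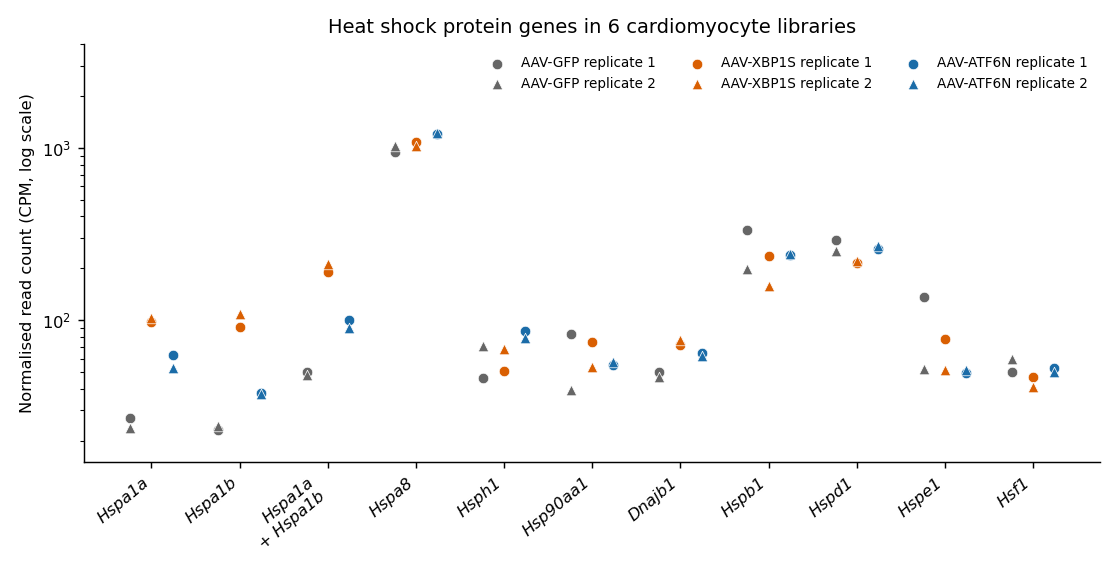
Normalised read count of each heat shock gene and of the sum of Hspa1a and Hspa1b, in CPM on a log axis, 1 point per library and 1 colour per group (circles replicate 1, triangles replicate 2). The 2 AAV-XBP1S libraries of the sum sit at 190 and 211 CPM, above AAV-ATF6N at 101 and 90.5 and AAV-GFP at 50.04 and 48.1, whereas most other genes overlap or lie close together.

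Hspa1a, which encodes the major inducible cytosolic HSP70, was at 26.9 and 23.8 CPM in AAV-GFP, 98.1 and 102 in AAV-XBP1S, and 63.2 and 52.9 with AAV-ATF6N. Hspa1b, its near copy, was at 23.1 and 24.3 CPM in AAV-GFP, 91.5 and 109 in AAV-XBP1S, and 37.6 and 37.6 with AAV-ATF6N. For both genes the 3 groups were fully separated, with AAV-XBP1S highest and AAV-GFP lowest. Against AAV-GFP, Hspa1a rose in AAV-XBP1S by 1.98 on the log2 scale (SE 0.21, edgeR adjusted p = 0.0221) and Hspa1b by 2.08 (SE 0.20, adjusted p = 0.0162). Their sum, which does not depend on how reads were divided between the copies, rose 4.09-fold, with a 95% interval of 2.96 to 5.63 (adjusted p = 0.0154). These calls rested on the pooled estimate of spread. They were lost when either AAV-XBP1S library or either AAV-ATF6N library was left out and when only the 4 libraries compared were fitted, with adjusted p up to 0.220 for Hspa1a and 0.216 for Hspa1b. They held in the other 7 of 12 alternative fits, those without either AAV-GFP library included, and the log2 fold change of the sum stayed between 1.96 and 2.15 over all 12. AAV-XBP1S, where the pair was highest, had the lowest cardiomyocyte marker sum, as given above, and higher sums than AAV-GFP for fibroblast, endothelial, macrophage, smooth muscle and epicardial markers. The sums of the fibroblast list and of the epicardial and Schwann cell list had the pair's order of groups without overlap. Not every gene in them did. Higher in AAV-ATF6N than in AAV-XBP1S were 4 of 12 fibroblast markers and 3 of 8 tested epicardial and Schwann cell markers, Upk3b among them. Fibroblast markers summed to 982 to 1217 CPM in AAV-GFP, 1659 to 1793 in AAV-XBP1S and 1398 to 1448 in AAV-ATF6N. The 9 epicardial and Schwann cell markers summed to 8.33 to 8.46, 34.9 to 41.5 and 16.8 to 16.96 CPM in the same groups. Krt8 alone reached 24.5 CPM in AAV-XBP1S. The list's median log2 fold change against AAV-GFP was 0.93 in AAV-XBP1S and 1.68 in AAV-ATF6N, unlike the order of the sums. In bulk RNA fewer cells of a type and less RNA per cell cannot be told apart, and the part of other cells in the HSP70 values was not tested. The authors' deposited table gave 1.98 for Hspa1a (adjusted p = 5.24e-06) and 2.07 for Hspa1b (adjusted p = 1.36e-06) in AAV-XBP1S, and 1.31% of the genes it tested passed.

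Under AAV-ATF6N the inducible pair was 1.95-fold the AAV-GFP level (95% interval 1.43 to 2.66), which missed the threshold (log2 fold change 0.96, SE 0.19, adjusted p = 0.120). Hspa1a alone gave a log2 fold change of 1.19 (SE 0.20, adjusted p = 0.0842) and Hspa1b 0.67 (SE 0.19, adjusted p = 0.270). Over the 12 alternative fits, Hspa1a passed in 4, among them DESeq2 at an adjusted p of 0.000164 and the fit without AAV-GFP replicate 2 at 0.0311, and its adjusted p ranged from 0.000164 to 0.879. The sum passed in 2, DESeq2 (adjusted p = 0.00251) and the fit without AAV-GFP replicate 2 (0.0339), over a range of 0.00251 to 0.880. Hspa1b passed in 0 of them, DESeq2 included, and was past an unadjusted p of 0.05 in the reported fit. The authors' deposited table listed Hspa1a at a log2 fold change of 1.20 (adjusted p = 0.00692) and Hspa1b at 0.67 (adjusted p = 0.274) in AAV-ATF6N, where 2.71% of its tested genes passed.

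The direct comparison of the vectors put the summed pair lower in AAV-ATF6N than in AAV-XBP1S, with a log2 fold change of -1.07 (SE 0.19, adjusted p = 0.0757). The libraries did not overlap, and the 95% interval of the difference was -1.52 to -0.62. Hspa1b differed by -1.41 (SE 0.20, adjusted p = 0.0579) and Hspa1a by -0.79 (SE 0.20, adjusted p = 0.159). Hspa1b crossed the threshold in 7 of 12 alternative fits and the sum in 6, over adjusted p from 0.000354 to 0.920 for the sum. The values behind it are 190 and 211 CPM in AAV-XBP1S against 101 and 90.5 in AAV-ATF6N.

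Reads of this pair are hard to assign. The coding sequences, 1926 bases for Hspa1a and 1929 for Hspa1b in GENCODE M21, differ at 8 aligned positions and share an identical run of 638 bases. Of all 50-base windows of the transcripts, 41.2% of those of Hspa1a and 37.7% of those of Hspa1b were absent from the other copy, and of coding windows 17.7% and 17.8%. How the counting treated reads that map to both is not given in the sources used here, so each copy's own value is uncertain. Hspa1a took 53.8% and 49.4% of the pair's counts in AAV-GFP, 51.7% and 48.5% in AAV-XBP1S, and 62.7% and 58.5% with AAV-ATF6N. The Wilson 95% intervals of the AAV-ATF6N libraries, 61.6% to 63.7% and 57.2% to 59.7%, lay above those of the other 4, the highest of which ended at 55.2%. Such intervals cover counting error only. Between 2 groups of 2 libraries an exact permutation test cannot give a two-sided p below 33.3%, and no permutation test was run. GENCODE also places Gm20481 on the opposite strand over 564 bases of the Hspa1a exon, and the library kit does not mark strand, so its reads cannot be told apart from those of Hspa1a.

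**Figure D2:**
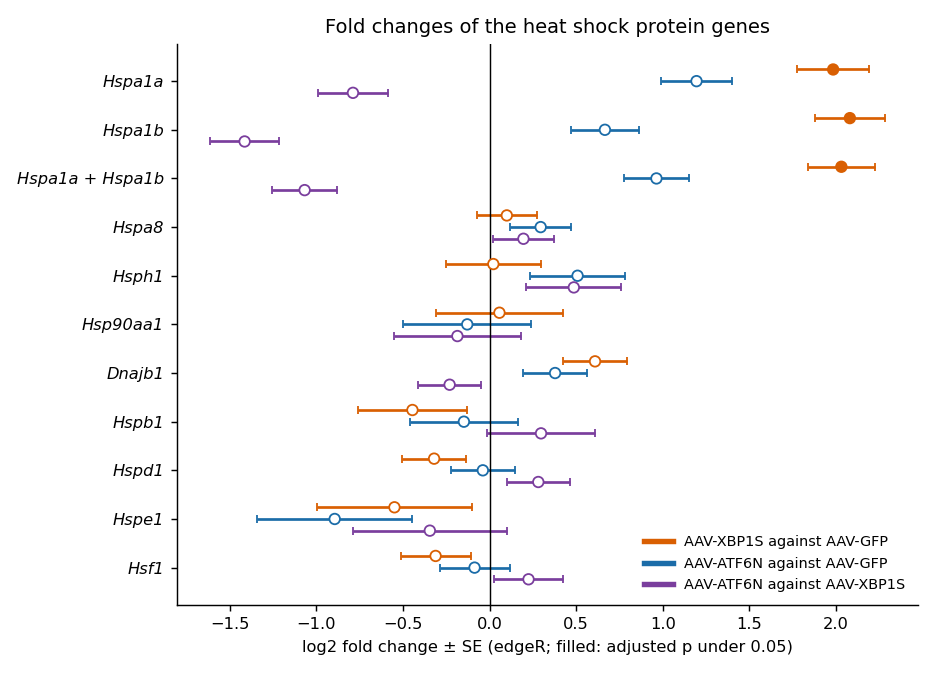
Log2 fold change with its standard error for each gene in the 3 comparisons, from edgeR on all 6 libraries; filled points have an adjusted p under 0.05. Only the AAV-XBP1S points of Hspa1a (1.98), Hspa1b (2.08) and their sum (2.03) are filled.

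The constitutive HSP70 gene Hspa8 was by far the highest member and did not pass the test in any comparison. Hspa8, whose product is the housekeeping cytosolic HSP70, was at 945 and 1029 CPM in AAV-GFP, 1084 and 1031 in AAV-XBP1S, and 1198 and 1224 with AAV-ATF6N. AAV-ATF6N lay above the other groups and AAV-XBP1S just above AAV-GFP, without overlap. The fold for AAV-XBP1S against AAV-GFP had a 95% interval of 0.803 to 1.43 and that for AAV-ATF6N one of 0.919 to 1.64. Adjusted p was 0.842 and 0.431. Per length, in TPM (counts divided by gene length and scaled to a common library total), Hspa1a and Hspa1b made up 3.82% and 3.39% of the TPM of the pair plus Hspa8 in AAV-GFP. The share was 11.6% and 13.3% in AAV-XBP1S, and 5.94% and 5.26% with AAV-ATF6N. Hspa8 thus made up most of these cytosolic HSP70 transcripts, as counted, in every library. The pair's share would be too low if reads that map to both copies were dropped, which the sources used here do not say.

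Hsph1, the HSP110 nucleotide exchange factor of HSP70, was at 46.4 and 70.6 CPM in AAV-GFP, 50.5 and 68.3 in AAV-XBP1S, and 87.2 and 79.2 with AAV-ATF6N. AAV-ATF6N was above both other groups, which overlapped. Its log2 fold change against AAV-GFP was 0.51 (95% interval -0.14 to 1.16, adjusted p = 0.408) in AAV-ATF6N and 0.02 (-0.63 to 0.67, adjusted p = 0.981) in AAV-XBP1S. Dnajb1, a J-domain partner induced together with HSP70 in heat shock, was at 50.3 and 47.0 CPM in AAV-GFP, 71.7 and 76.6 in AAV-XBP1S, and 64.5 and 62.0 with AAV-ATF6N. It followed the same order of groups as the inducible pair, without overlap. Its log2 fold change was 0.61 in AAV-XBP1S (SE 0.18, adjusted p = 0.299) and 0.38 in AAV-ATF6N (SE 0.18, adjusted p = 0.390). The unadjusted test of Dnajb1 in AAV-XBP1S was under 0.05, and its interval of 0.17 to 1.05 did not include 0, but it passed an adjusted threshold in 0 of 12 alternatives (adjusted p 0.0977 to 0.926), DESeq2 included.

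Counted by library order alone, 6 of 10 members were fully separated between AAV-XBP1S and AAV-GFP, beside 35.9% of all genes tested. Hspa1a, Hspa1b, Hspa8 and Dnajb1, 4 of 10, were above (19.1% of all genes) and Hspd1 and Hsf1 below (16.8% of all genes). Between AAV-ATF6N and AAV-GFP 6 of 10 were separated, beside 54.5% of all genes: Hspa1a, Hspa1b, Hspa8, Hsph1 and Dnajb1 above (27.9% of all genes) and Hspe1 below (26.7%). Between the vectors 8 of 10 were separated, beside 56.9% of all genes, with 5 higher in AAV-ATF6N (30.1% of all genes) and 3 lower (26.8%).

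Hsp90aa1, the stress-inducible cytosolic HSP90, was at 83.6 and 39.3 CPM in AAV-GFP, 74.4 and 53.4 in AAV-XBP1S, and 54.9 and 57.5 with AAV-ATF6N. All 3 groups overlapped, and the AAV-GFP replicates were the farthest apart. Its log2 fold changes against AAV-GFP were 0.06 (95% interval -0.82 to 0.93, adjusted p = 0.959) in AAV-XBP1S and -0.13 (-1.01 to 0.75, adjusted p = 0.864) in AAV-ATF6N. Without AAV-GFP replicate 1 they became 0.70 and 0.52, so no direction can be given. Hsp90ab1, the constitutive HSP90, was far higher, and by TPM Hsp90aa1 made up only 2.90% to 5.22% of both together over the 6 libraries.

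Hspb1, the small heat shock protein that binds actin and holds unfolding proteins, was at 335 and 200 CPM in AAV-GFP, 236 and 157 in AAV-XBP1S, and 240 and 243 with AAV-ATF6N. Each vector overlapped AAV-GFP, and AAV-ATF6N lay above AAV-XBP1S. The log2 fold change was -0.45 (SE 0.31, adjusted p = 0.630) in AAV-XBP1S and -0.15 (SE 0.31, adjusted p = 0.811) in AAV-ATF6N, and the latter turned to 0.27 without AAV-GFP replicate 1.

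Neither gene of the mitochondrial chaperonin pair passed the test. Hspd1, the barrel subunit HSP60 encoded at chr1:55077834-55087932 on the minus strand, was at 290 and 253 CPM in AAV-GFP, 215 and 220 in AAV-XBP1S, and 260 and 269 with AAV-ATF6N. AAV-XBP1S lay below both other groups. The log2 fold change against AAV-GFP was -0.32 in AAV-XBP1S (SE 0.18, adjusted p = 0.555) and -0.04 in AAV-ATF6N (SE 0.18, adjusted p = 0.919). Hspe1, the lid subunit HSP10 encoded at chr1:55088148-55091317 on the plus strand, was at 136 and 51.9 CPM in AAV-GFP, 77.5 and 51.2 in AAV-XBP1S, and 49.6 and 51.7 with AAV-ATF6N. A single library, AAV-GFP replicate 1, was far above the rest. The log2 fold change of Hspe1 was -0.55 (SE 0.45, adjusted p = 0.667) in AAV-XBP1S and -0.89 (SE 0.45, adjusted p = 0.392) in AAV-ATF6N. That library decided both values: without it they were 0.31 and -0.03, and without the other AAV-GFP library Hspe1 passed in AAV-ATF6N at -1.42 (adjusted p = 0.0305). Per length, Hspe1 was 1.43 and 0.622 times Hspd1 in AAV-GFP, 1.09 and 0.706 times in AAV-XBP1S and 0.579 and 0.585 times in AAV-ATF6N. GENCODE places exons of Hspd1 on the opposite strand over 96 bases of the exons of Hspe1, where reads cannot be told apart.

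In each group Hspe1 and Hspb1 differed between replicates in the same direction as the median of genes of up to 1000 bases. In AAV-GFP the difference of Hspe1 was larger than that median, at percentile 98.7 of all genes tested. Hspe1 has 768 exon bases and Hspb1 903, the shortest of the members, and their first AAV-GFP library was higher than the second by 1.39 and 0.75 on the log2 scale, beside the median of 0.79 for all genes of up to 1000 bases. Hsph1, with 3478 bases the longest member, differed by -0.60 the other way. Hsp90aa1, with 2850 bases, was higher in the first library by 1.08, against a median of -0.17 for genes of over 2000 and up to 4000 bases. Hspa1a and Hspa1b, of 2798 and 2810 bases, differed by 0.18 and -0.07. The part of library length pattern in the group differences of the short members was not tested.

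**Figure D3:**
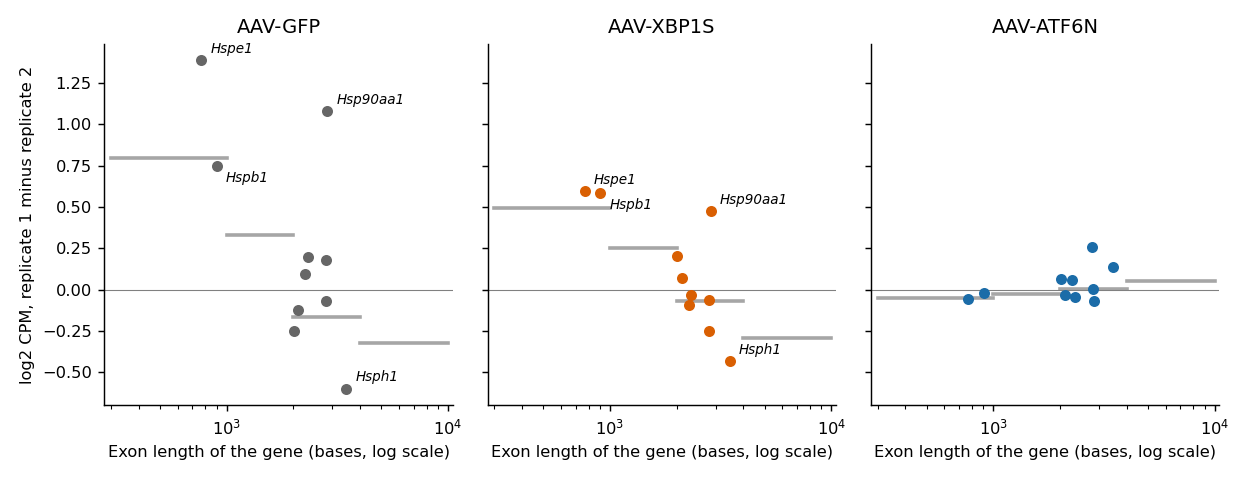
Difference in log2 CPM between replicate 1 and replicate 2 of each group, plotted against the exon length of the gene on a log axis; points are the 10 heat shock genes, and grey bars the median of all tested genes in each of 4 length classes. In AAV-GFP the short genes Hspe1 (1.39) and Hspb1 (0.75) lie high like the bar for genes of up to 1000 bases (0.79), while the points of AAV-ATF6N run from -0.07 to 0.25.

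Hsf1, the transcription factor of the heat shock response, was at 49.8 and 59.3 CPM in AAV-GFP, 47.1 and 40.8 in AAV-XBP1S, and 52.5 and 50.2 with AAV-ATF6N. AAV-XBP1S, where the inducible pair was highest, had the lowest Hsf1 values, without overlap with either group. The log2 fold change against AAV-GFP was -0.31 (SE 0.20, adjusted p = 0.602) in AAV-XBP1S and -0.09 (SE 0.20, adjusted p = 0.831) in AAV-ATF6N. HSF1 is known to be controlled mainly as a protein, and these libraries measured its transcript only.

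Per length, the order of the members was led in every group by Hspa8, Hspb1, Hspd1 and Hspe1. Mean TPM in AAV-GFP was 736 ± 222 (SD, n = 2) for Hspa8, 441 ± 53.8 for Hspb1, 179 ± 26.4 for Hspd1 and 176 ± 74.9 for Hspe1. The last pair did not differ beyond their spread. Hsf1 at 42.8 ± 15.4, Dnajb1 at 33.3 ± 6.53, Hsp90aa1 at 31.5 ± 8.98 and Hsph1 at 27.1 ± 14.02 TPM followed, and each was within its spread of its neighbour. Hspa1a at 13.97 ± 2.18 and Hspa1b at 13.2 ± 3.67 TPM were lowest in AAV-GFP, did not differ beyond their spread and lay within the spread of Hsph1. The rank of both in any group would be too low if reads that map to both copies were dropped. In AAV-XBP1S both came next after the leading genes, Hspa1b at 71.8 ± 19.1 and Hspa1a at 71.7 ± 12.6 TPM, within their spread of Dnajb1 at 65.6 ± 12.6. In AAV-ATF6N Hspa1a was at 39.6 ± 5.51 and Hspa1b at 25.5 ± 0.367 TPM, the latter lowest of the 10.

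Related chaperones and co-chaperones gave no edgeR call with all 6 libraries. In 8 lists of related genes, 0 genes passed edgeR's test in any comparison. That count depended on the test, since DESeq2 called some of these genes, and on the control libraries. Without AAV-GFP replicate 2, genes of every list passed in AAV-ATF6N against AAV-GFP, but so did far more of all genes tested. Some list genes also passed in AAV-XBP1S when 1 or the other AAV-GFP library was left out. Such fits leave 1 library in AAV-GFP, so their calls give no result about the lists. With all libraries, DESeq2 called 8 genes of the lists between the vectors, all higher in AAV-ATF6N: Hspa1l, Dnajb4, Dnajb5, Bag3, Fkbp5, Spg7, Ier5 and Serpinh1. Of all genes it tested DESeq2 called 5.39% in that comparison, 305 higher and 498 lower, and each list held 7 to 27 tested genes. The lists overlap: 16 of the 25 other HSF1 targets also stand in another of them. Among 25 further genes known as HSF1 targets in heat shock, 4 lay above 0 and 21 below in AAV-XBP1S against AAV-GFP (median log2 fold change -0.29), beside 7125 above and 7450 below among all genes tested. In AAV-ATF6N 13 lay above and 12 below (median 0.14). Unadjusted p was under 0.05 for 5 and 7 of the 25, beside 11.6% and 13.5% of all genes tested. DESeq2 called Stip1 in AAV-XBP1S, and Stip1 and Hmox1 in AAV-ATF6N, beside 3.17% and 3.76% of the genes it tested. Without AAV-GFP replicate 1 the AAV-XBP1S split became 8 above and 17 below with a median of -0.15. For the lists and their genes, leaving out libraries was an alternative added once the data had been seen.

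Co-chaperones of HSP70 and HSP90, 27 genes, lay below 0 in 26 cases in AAV-XBP1S (median -0.30) and in 17 in AAV-ATF6N (median -0.15). Without AAV-GFP replicate 1 the AAV-XBP1S count was 19 and the median -0.18, and the AAV-ATF6N median was -0.07. Unadjusted p was under 0.05 for 3 and 4 of them, beside 11.6% and 13.5% of all genes. DESeq2 called 1 in each, Stip1, beside 3.17% and 3.76%. Stip1, which links HSP70 to HSP90, was at 150 and 181 CPM in AAV-GFP, 74.0 and 69.3 in AAV-XBP1S, and 88.1 and 90.6 with AAV-ATF6N. Its log2 fold change was -1.21 (adjusted p = 0.0854) and -0.89 (adjusted p = 0.156), with both vectors below AAV-GFP without overlap. Fkbp5, an HSP90 co-chaperone induced by glucocorticoids, was at 9.96 and 14.6 CPM in AAV-GFP, 5.48 and 8.12 in AAV-XBP1S, and 21.9 and 20.2 with AAV-ATF6N (log2 fold changes -0.85 and 0.78, adjusted p = 0.361 and 0.351). Bag3, the HSP70 co-chaperone of muscle Z-disc turnover, gave -0.30 and 0.45 (adjusted p = 0.558 and 0.355).

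The 9 other HSP70, HSP90 and HSP110 genes had medians of -0.00 and 0.44 in the comparisons with AAV-GFP. Of them, 1 and 4 had an unadjusted p under 0.05, beside 11.6% and 13.5% of all genes. The AAV-ATF6N median was 0.05 when AAV-GFP replicate 1 was left out. The AAV-XBP1S median moved to either side of 0: it was -0.18 with AAV-XBP1S replicate 2 removed, -0.09 with AAV-GFP replicate 1 removed, 0.21 with AAV-XBP1S replicate 1 removed and 0.24 with AAV-GFP replicate 2 removed. With all libraries, DESeq2 called 0 of these 9 genes in AAV-XBP1S and Hspa1l in AAV-ATF6N, beside 3.17% and 3.76% of all genes it tested. Hspa1l, the HSP70 gene beside Hspa1a best known from testis, was at 4.59 and 4.66 CPM in AAV-GFP, 4.12 and 3.06 in AAV-XBP1S, and 10.5 and 9.20 with AAV-ATF6N. It lay highest in AAV-ATF6N (log2 fold change 1.09, adjusted p = 0.190), unlike Hspa1a and Hspa1b, which were highest in AAV-XBP1S. Hspa13, an HSP70 relative found in microsomes, was at 12.2 and 15.4 CPM in AAV-GFP, 20.1 and 39.2 in AAV-XBP1S, and 19.3 and 18.0 with AAV-ATF6N (log2 fold changes 1.11 and 0.44, adjusted p = 0.306 and 0.4998). Hspa4 gave -0.00 and 0.59 (adjusted p = 0.999 and 0.353) and Hsp90ab1 -0.40 and -0.38 (adjusted p = 0.576 and 0.450).

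Of 7 other small heat shock proteins, 6 lay below 0 in AAV-XBP1S and 5 in AAV-ATF6N, with medians of -0.39 and -0.40. Without AAV-GFP replicate 1 the medians were -0.15 and -0.01, and without AAV-GFP replicate 2 -0.73 and -0.67. Leaving out AAV-XBP1S replicate 1 made the AAV-XBP1S median -0.71, and leaving out its replicate 2 made it -0.13. Unadjusted p was under 0.05 for 1 and 0 of them, beside 11.6% and 13.5% of all genes. DESeq2 called 0 in both, beside 3.17% and 3.76%. Cryab, the αB-crystallin abundant in heart muscle, was at 2441 and 1301 CPM in AAV-GFP, 1608 and 1079 in AAV-XBP1S, and 1295 and 1294 with AAV-ATF6N, with the first AAV-GFP library again apart. Hspb8 gave -0.70 and -0.35 (adjusted p = 0.330 and 0.452) and Hspb2 -0.64 and -0.63 (adjusted p = 0.535 and 0.408).

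Cytosolic J-domain proteins, 16 genes, had medians of -0.14 and 0.03. Of them, 3 and 2 had an unadjusted p under 0.05, beside 11.6% and 13.5% of all genes. DESeq2 called 0 and 0, beside 3.17% and 3.76%. The AAV-ATF6N median was -0.00 with upper-quartile scaling, also tried after seeing the data. It was 0.07 when AAV-GFP replicate 1 was left out, -0.11 when replicate 2 of that group was, -0.07 when AAV-XBP1S replicate 1 was and -0.13 when AAV-ATF6N replicate 1 was, so no direction can be given. The AAV-XBP1S median was -0.29 with AAV-XBP1S replicate 1 removed, -0.07 with either its replicate 2 or AAV-GFP replicate 1 removed, and -0.23 with AAV-GFP replicate 2 removed. Dnajb4 was at 94.4 and 85.9 CPM in AAV-GFP, 70.2 and 89.3 in AAV-XBP1S, and 142 and 138 with AAV-ATF6N (log2 fold changes -0.18 and 0.64, adjusted p = 0.753 and 0.305). Dnajb5 gave -0.73 and 0.38 (adjusted p = 0.330 and 0.441). Dnajc6 had 0 counts in both AAV-GFP libraries and at most 0.136 CPM in any other. Against a floor of 3 counts over the AAV-GFP group, its mean was 4.04-fold the floor in AAV-XBP1S and 4.70-fold in AAV-ATF6N. Replicate 1 carried both means, at 0.118 CPM beside 0.0244 in AAV-XBP1S and 0.136 beside 0.0306 in AAV-ATF6N. Neither difference of Dnajc6 from AAV-GFP passed edgeR's test (adjusted p = 0.452 and 0.374).

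Mitochondrial chaperones and proteases, 20 genes, lay below 0 in 18 cases in AAV-XBP1S (median -0.23) and in 12 in AAV-ATF6N (median -0.13). Without AAV-GFP replicate 2 the AAV-XBP1S count was 12, and without AAV-GFP replicate 1 the AAV-ATF6N median was -0.05. Unadjusted p was under 0.05 for 2 and 0, beside 11.6% and 13.5% of all genes. DESeq2 called Spg7 in AAV-XBP1S and 0 genes in AAV-ATF6N, beside 3.17% and 3.76%. Spg7, a subunit of the inner-membrane AAA protease, was at 176 and 194 CPM in AAV-GFP, 96.4 and 107 in AAV-XBP1S, and 174 and 169 with AAV-ATF6N (log2 fold changes -0.87 and -0.11, adjusted p = 0.169 and 0.762). Lonp1, the matrix protease, gave -0.69 and -0.32 (adjusted p = 0.240 and 0.416), and Hspa9, the matrix HSP70, -0.17 and 0.33 (adjusted p = 0.818 and 0.509). The cytosolic TRiC chaperonin and its partner prefoldin, 14 genes, had medians of -0.18 and -0.17, and 0 had an unadjusted p under 0.05 in either comparison and 0 were called by DESeq2. When AAV-GFP replicate 1 was left out the medians were -0.03 and -0.09, with 6 of the 14 above 0 in each. The AAV-XBP1S median was -0.11 with AAV-XBP1S replicate 2 removed. Pfdn5 and H2-Ke2, the table's symbol for Pfdn6, had the smallest p there, with log2 fold changes of -0.52 and -0.82 for Pfdn5 and -0.51 and -0.87 for H2-Ke2 (adjusted p from 0.384 to 0.662 for H2-Ke2).

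Other heat shock factors and their regulators, 11 genes tested of 13 listed, had medians of -0.29 and 0.10. Of them, 1 and 3 had an unadjusted p under 0.05, beside 11.6% and 13.5% of all genes. DESeq2 called 0 of them against AAV-GFP, beside 3.17% and 3.76%. The AAV-ATF6N median turned to -0.11 without AAV-GFP replicate 2, -0.20 without AAV-ATF6N replicate 1 and -0.01 without AAV-ATF6N replicate 2, and was 0.16 without AAV-GFP replicate 1, so no direction can be given. The AAV-XBP1S median was -0.08 without AAV-GFP replicate 1. Hsf2 was at no more than 2.403 CPM in any library. Ier5, an immediate early gene known to activate HSF1, was at 56.4 and 40.4 CPM in AAV-GFP, 28.4 and 25.5 in AAV-XBP1S, and 81.2 and 88.3 with AAV-ATF6N (log2 fold changes -0.85 and 0.81, adjusted p = 0.256 and 0.262). Vcp, the segregase of ubiquitinated proteins, gave 0.00 and 0.55 (adjusted p = 0.997 and 0.306). Hmox1, a stress gene on the HSF1 target list, gave 0.76 and 1.10 (adjusted p = 0.294 and 0.139).

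**Figure D4:**
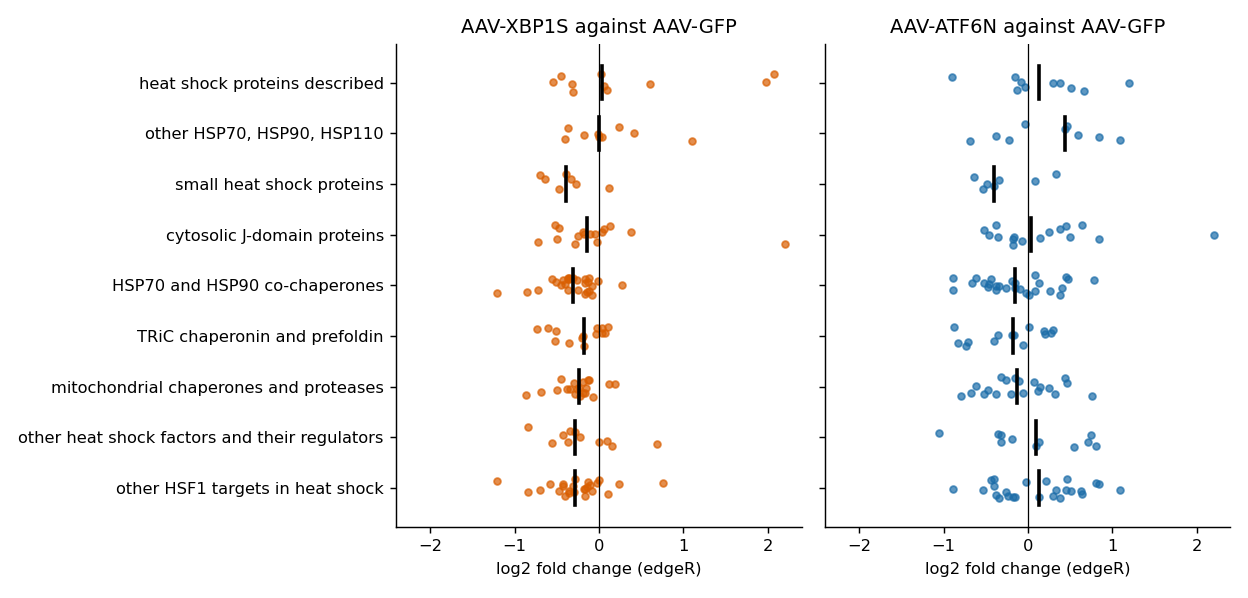
Log2 fold change of every tested gene in the 10 heat shock genes and 8 related lists, for each vector against AAV-GFP; black bars are medians and the vertical scatter within a list has no meaning. The Hspa1a and Hspa1b points near 2 in AAV-XBP1S stand beyond all other genes of these lists except Dnajc6, which had 0 counts in AAV-GFP and whose fitted values of 5.59 and 5.81 are drawn at the edge.

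As a sum, genes induced early by stress and cell isolation had another order of groups than the inducible pair. Single genes differed: 13 of the 22 listed lay above 0 and 9 below in AAV-XBP1S against AAV-GFP. Between the vectors, 18 were higher in AAV-ATF6N and 4 lower. This list of 22 immediate early genes summed to 2478 to 2780 CPM in AAV-GFP, 2626 to 2802 in AAV-XBP1S and 3814 to 3853 in AAV-ATF6N. By the sum AAV-ATF6N was highest, and the pair's highest group, AAV-XBP1S, overlapped AAV-GFP. In AAV-ATF6N 3 of the 22 rose against AAV-GFP: Fos by 1.70, Egr1 by 1.92 and Atf3 by 1.34 on the log2 scale (adjusted p = 0.0277, 0.0401 and 0.0480), and Myc was higher than in AAV-XBP1S by 2.28 (adjusted p = 0.0479). Each of these 4 calls was lost when any AAV-XBP1S or AAV-ATF6N library was left out, and that of Atf3 also without AAV-GFP replicate 1. In AAV-XBP1S 0 of the 22 passed edgeR's test. Unadjusted p was under 0.05 for 13 of the 22 in each vector, beside 11.6% of all genes in AAV-XBP1S and 13.5% in AAV-ATF6N. DESeq2 called 5 in AAV-XBP1S, 3 higher and 2 lower (3.17% of all genes), and 10 in AAV-ATF6N, 9 higher and Ier3 lower (3.76% of all genes). Their part in the values of the HSP70 pair was not tested.

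The remaining marker lists are given in the order AAV-GFP, AAV-XBP1S and AAV-ATF6N. Endothelial markers, 12 of 12 above 0 in AAV-XBP1S and 11 of 12 below 0 in AAV-ATF6N, summed to 828 to 1117 CPM in AAV-GFP, 1285 to 1608 in AAV-XBP1S and 707 to 756 in AAV-ATF6N. Among the epicardial and Schwann cell markers Krt18, an epithelial keratin, rose in AAV-XBP1S by 3.15 (adjusted p = 0.0423), and Krt8 went from at most 0.406 CPM in AAV-GFP to 24.5 and 19.1 in AAV-XBP1S, while the epicardial factor Wt1 was between 2.45 and 4.15 CPM in every library. Macrophage markers summed to 48.2 to 48.9, 62.9 to 72.6 and 63.7 to 63.7 CPM, both vectors above AAV-GFP and overlapping each other, smooth muscle and pericyte markers to 965 to 1082, 1102 to 1202 and 1286 to 1334, and erythroid markers to 131 to 277, 70.5 to 106 and 41.0 to 42.1. The erythroid gene Alas2 fell in AAV-ATF6N, with a log2 fold change of -1.75 (adjusted p = 0.0470), and Hba-a1 and Hba-a2 were at 0 in every library. The calls of Krt18 and Alas2 were lost when any AAV-XBP1S or AAV-ATF6N library was left out, and that of Krt18 also without AAV-GFP replicate 1. In the cardiomyocyte, endothelial, fibroblast, macrophage and smooth muscle lists, of 15, 12, 12, 12 and 10 tested genes, 0 genes passed edgeR's test against AAV-GFP. Unadjusted p was under 0.05 for 2, 3, 6, 1 and 1 of them in AAV-XBP1S, beside 11.6% of all genes. In AAV-ATF6N it was for 3, 5, 3, 2 and 2, beside 13.5%. DESeq2 called 1, 0, 2, 0 and 0 in AAV-XBP1S (3.17% of the genes it tested), and 1, 2, 1, 0 and 1 in AAV-ATF6N (3.76%). The smallest p in each list, given as log2 fold changes in AAV-XBP1S and AAV-ATF6N, belonged to Ckm (-1.07 and -0.88), Emcn (0.49 and -1.05), Egfl7 (0.44 and -1.20), Fbln1 (-1.03 and -0.42), Lum (1.01 and 0.35), Lyz2 (0.79 and 0.75), Emr1 (1.12 and 1.61), Kcnj8 (0.48 and -1.10) and Rgs5 (0.56 and -0.59). Pecam1 was at 0.72 and -0.22, Col1a1 at 0.87 and 1.28 and Ptprc at 0.94 and 1.10 on that scale. Myh6, the main adult cardiomyocyte myosin, spanned 22991 to 41121 CPM within AAV-GFP alone.

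By the pattern over the 6 libraries, the genes most like the summed pair were Mest, Arfgap3, Prnd, Nrarp and Gnb3. Likeness was the root-mean-square difference of log2 CPM after each gene was centred on its own mean, among 9024 genes with a mean of at least 5 CPM. It was 0.23 for Mest, 0.25 for Arfgap3, 0.26 for Prnd, 0.28 for Nrarp and 0.28 for Gnb3. Arfgap3, a GTPase-activating protein of Golgi vesicles, was at 8.58 and 10.7 CPM in AAV-GFP, 32.7 and 34.8 in AAV-XBP1S, and 12.7 and 13.5 with AAV-ATF6N. Arfgap3 passed the test in AAV-XBP1S against AAV-GFP (log2 fold change 1.81, adjusted p = 0.0382), a call that was lost when any AAV-XBP1S or AAV-ATF6N library was left out. The imprinted gene Mest was at 11.8 and 13.5, 35.7 and 42.6, and 17.4 and 19.9 CPM in the same groups (log2 fold change 1.63, adjusted p = 0.0522).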

How the data were processed

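Polyadenylated RNA was measured in 6 libraries, with SMART-Seq v4 and Nextera XT named in the protocol and SMART-Seq2 in a description. The authors deposited whole-number read counts per gene, for which the submitters' processing notes name STAR, featureCounts and the mm10 genome build. The sources used here give no tool versions, read length or strand setting. Unused columns of per-sample values numbered 0. The authors' deposited tables of each vector against AAV-GFP hold mean normalized signal, log2 fold changes, standard errors and Wald statistics as scores, and p-values, per the file headers; the notes name DESeq2.

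Counts were filtered (edgeR 4.0.16 filterByExpr, count minimum 10), scaled by TMM and fitted with edgeR's quasi-likelihood test over all 6 libraries, with group as the only term and 3 residual degrees of freedom. The p-values were two-sided and adjusted by Benjamini-Hochberg over 14587 genes, and called under 0.05. DESeq2 1.42.0, other scalings, no filter, 4-library fits, a replicate block and leaving out each library were alternatives. The sum of Hspa1a and Hspa1b replaced both in its own fit. TPM used the table's gene lengths.

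The members and lists were chosen with earlier results of these data known. All members were described. From each list, the text names every gene called, or else the 2 with the smallest p against AAV-GFP, plus fixed genes such as Cryab and Bag3, and the 5 genes nearest in pattern. Dnajc6, Hba-a1 and Hba-a2, named outside this rule, were chosen after their values were seen. Of the listed symbols, Dnajc20 and Hbb-bt were not matched. Promoters came from RefSeq on GRCm38.p6, which has the coordinates of mm10.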

Additional observations from a re-analysis of the deposited data

How the results depend on the processing

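The design limits what can be said: with 2 libraries per group and 3 residual degrees of freedom, counts of calls moved widely while fold changes of the HSP70 pair did not. Genes called over all tested were 46 for AAV-XBP1S and 75 for AAV-ATF6N against AAV-GFP, and 33 between the vectors. They became 484, 573 and 803 with DESeq2, 233, 348 and 458 with no filter on low counts, and 13, 8 and 663 when only the 4 libraries compared were fitted. Leaving out 1 library gave 2 to 322, 6 to 3055 and 1 to 717. Between the vectors the calls split into 25 higher and 8 lower with TMM and 26 and 15 with upper-quartile scaling.

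Heat shock genes called, 2, 0 and 0 as reported, were 1 against AAV-GFP in AAV-ATF6N with DESeq2 and with no filter. Between the vectors they were 2 with DESeq2, and 1 with no filter, with upper-quartile scaling and with 4 libraries. In AAV-XBP1S they were 0 with 4 libraries. Leaving out 1 library gave 0 to 2, 0 to 2 and 0 to 1. The summed pair kept its direction in all 12 alternatives. It lost its AAV-XBP1S call with 4 libraries (2.03, adjusted p = 0.106) and gained one in AAV-ATF6N with DESeq2 (0.96, adjusted p = 0.00251). Between the vectors it gained one with DESeq2 (-1.07, adjusted p = 0.000354), no filter (-1.07, adjusted p = 0.0273) and 4 libraries (-1.06, adjusted p = 0.0246). Leaving out 1 library gave 1.96 to 2.15, 0.88 to 1.04 and -1.19 to -0.99.

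The labels share replicate numbers only, and replicate differences correlated across genes at 0.66 between AAV-GFP and AAV-XBP1S, -0.11 between AAV-GFP and AAV-ATF6N and -0.13 between the vectors. With the replicate block, 165, 237 and 356 genes were called, 1 heat shock gene in AAV-ATF6N against AAV-GFP (Hspa1a, adjusted p = 0.0359), 1 between the vectors (Hspa1b, adjusted p = 0.0170), and the sum between the vectors (-1.07, adjusted p = 0.0427).

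Directions of members that were not called reversed with 1 library left out, and the cause was not tested. Over those fits, Hsph1 ran from -0.25 to 0.39, Hsp90aa1 from -0.36 to 0.70 and Hspe1 from -1.05 to 0.31 in AAV-XBP1S. In AAV-ATF6N, Hsp90aa1 ran from -0.56 to 0.52, Hspb1 from -0.46 to 0.27, Hspd1 from -0.12 to 0.063 and Hsf1 from -0.21 to 0.057, and between the vectors Hsp90aa1 ran from -0.41 to 0.030. Without AAV-GFP replicate 1, Hsph1 and Hspe1 reversed in AAV-XBP1S and Hsp90aa1, Hspb1 and Hspd1 in AAV-ATF6N. Without AAV-GFP replicate 2, Hsp90aa1 reversed in AAV-XBP1S and Hsf1 in AAV-ATF6N. Without AAV-XBP1S replicate 1, Hsp90aa1 reversed in AAV-XBP1S (-0.15) and between the vectors, and without AAV-XBP1S replicate 2, Hsph1 reversed in AAV-XBP1S (-0.21).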
